A study of Mus musculus with 12 samples.

Results

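The let-7 axis is described here through 8 genes among the 18412 genes of the deposited tables. They are the let-7 regulators Lin28a, Lin28b and Dis3l2, and the targets Hmga2, Igf2bp1, Igf2bp2, Igf2bp3 and Trim71. They were taken by symbol in all 4 tables, and were chosen by their place in the pathway and by the exonic and intronic knockout minus wild-type differences measured here. Those differences are therefore given as a description, with a standard error and without a p-value.

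Let-7 is a microRNA family that accumulates as cells differentiate and represses growth and stem-cell genes through sites in their 3′ untranslated regions (3′ UTRs). Its primary transcripts are cut in the nucleus by Drosha with its partner Dgcr8, and the resulting hairpins are cut in the cytoplasm by Dicer. In embryonic stem cells (ESCs) the Lin28 proteins hold let-7 low by binding its precursors, which are then tailed with uridines and degraded by Dis3l2. Lin28a, Lin28b, Hmga2, the Igf2bp genes and Trim71 are in turn known let-7 targets, so that the axis forms a feedback loop.

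The data are polyadenylated, strand-specific RNA sequencing of mouse ESCs in 12 libraries, 3 per group, grown on gelatin in serum with leukaemia inhibitory factor. The groups are the stable mutant line Dicer1-/- and its wild-type line TFC, and the stable mutant line Dgcr8-/- and its wild-type line V6.5. The question set by this design is how exonic and intronic RNA differ in ESCs that lack either factor. Each genotype is 1 line, so effects of the lost factor and of anything else in which the lines differ cannot be told apart. Nothing in the labels says that the 3 libraries came from separate cultures, so p-values measure only the spread between libraries, which may be technical.

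The deposited tables hold 1 mean of normalised reads per group, from which the values of the 3 libraries were solved. All 8 genes had 1 solution in each of the 8 columns. Libraries are called A, B and C, where A is the one least correlated with the others of its group, at a mean r of 0.771 to 0.857 across genes. These letters match no replicate number of the labels. The libraries held 5946407 to 33142037 exonic and 559057 to 5627798 intronic reads.

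The lines were checked against marker lists. Summed exonic levels of ESC markers, from a list that includes Pou5f1 and Nanog, were 73405.9 to 99310.5 normalised reads in Dicer knockout cells. They were 66325.0 to 94413.5 in TFC cells. The sums were 83339.5 to 98873.1 in Dgcr8 knockout cells against 80628.3 (A), 31996.7 (B) and 42528.2 (C) in the V6.5 libraries. Library A had the highest sum in every group. These sums hold the 6 markers of 8 (Dicer) and 7 of 8 (Dgcr8) that could be solved. The unsolved ones are not named here and may include Pou5f1 or Nanog. In the knockout 4 markers were higher and 2 lower in the Dicer pair, and 6 and 1 in the Dgcr8 pair. Limma called 0 of them, where 1.23% (Dicer) and 1.35% (Dgcr8) of all genes tested were called. The targeted genes were lower in every knockout library. Dicer1 had 1333.5, 1762.9 and 1674.5 normalised reads in knockout libraries against 2943.8, 3277.8 and 3496.4 in TFC libraries. Dgcr8 had 342.1, 955.5 and 1113.6 in knockout libraries against 1929.8, 2707.1 and 2947.1 in V6.5 libraries. Neither passed the test (limma with Benjamini-Hochberg adjustment, adjusted p = 0.0754 for Dicer1 and 0.111 for Dgcr8), and exons outside a deleted part can still give reads. With a term for library A both passed (limma adjusted p = 0.00204 and 0.00128), as did Dicer1 without TFC library A (0.0432). Over all 12 fits Dicer1 passed in 2 and Dgcr8 in 1. Their limma or limma-voom adjusted p reached 0.371 and 0.396. Library A was picked from these same values, and no label pairs the A libraries of knockout and wild type. Adjusted p-values with this term or without a library A, here and below, may therefore be too low. A gene said below to pass only with this term or without a library A failed in all other fits of that table.

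The mature family is shown first, because one short stretch defines what it can pair with. The seed, bases 2 to 8 of the microRNA, is in capitals, and the sequences are those of RefSeq for GRCm38.p6. In all, 10 mature names from 12 loci share the seed GAGGUAG, while let-7j differs from them within the seed. MiR-125 is listed because it is the mammalian relative of lin-4, the other microRNA known to act on lin-28 in the worm Caenorhabditis elegans, and miR-294 because its seed family is abundant in ESCs.
let-7a-5p: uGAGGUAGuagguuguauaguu
let-7d-5p: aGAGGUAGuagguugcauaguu
let-7g-5p: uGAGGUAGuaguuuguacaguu
miR-98-5p: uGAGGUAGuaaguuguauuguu
let-7j: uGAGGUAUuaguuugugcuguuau
miR-125b-5p: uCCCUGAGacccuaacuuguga
miR-294-3p: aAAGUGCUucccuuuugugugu

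The targets differ in how many seed matches they carry. The letters CTACCTC (let-7), CTCAGGG (miR-125) and AGCACTT (miR-294) were searched on the transcript strand of the longest annotated 3′ UTR of each gene (GENCODE M21, GRCm38). The let-7 letters stand in 1897 of 20935 such UTRs (9.06%), or in 14.6% of those between 1000 and 8000 bases long. They stand in 7 of the 8 genes, 5 of which hold at least 2 matches, against 1.08% of all UTRs. These genes were chosen as known targets, so this count is a description of the choice. Lin28b, Hmga2, Igf2bp1 and Trim71 have 4 matches each, Lin28a has 2, and Igf2bp2 and Igf2bp3 have 1 each. Dis3l2, with a 3′ UTR of 350 bases, has 0. The miR-125 letters stand once each in Lin28a, Lin28b, Igf2bp3, Trim71 and Dis3l2 (13.2% of all UTRs), and the miR-294 letters once each in Lin28b, Igf2bp1 and Trim71 (14.7%).

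One site of 25 bases is given for each target that the results turn on, with the match in capitals, together with the miR-125 match of Lin28a, which lies closer to the stop codon than its let-7 matches. All are read 5′ to 3′ on the minus strand of GRCm38, each within 1 exon of the 3′ UTR. They lie at chr4:134005187-134005211 (Lin28a, let-7), chr4:134005299-134005323 (Lin28a, miR-125), chr10:120364222-120364246 (Hmga2), chr16:22059471-22059495 (Igf2bp2), chr6:49086785-49086809 (Igf2bp3) and chr9:114512470-114512494 (Trim71). A match describes the letters only.
Lin28a let-7 match: gcacagcctgttgaaCTACCTCatt
Lin28a miR-125 match: aggtacatgagcaatCTCAGGGata
Hmga2 let-7 match: gccgacattcaatttCTACCTCagc
Igf2bp2 let-7 match: acacacaaataaaagCTACCTCagg
Igf2bp3 let-7 match: tgcatttttactcaaCTACCTCagg
Trim71 let-7 match: aacattgcctaagtcCTACCTCagc

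**Figure D1:**
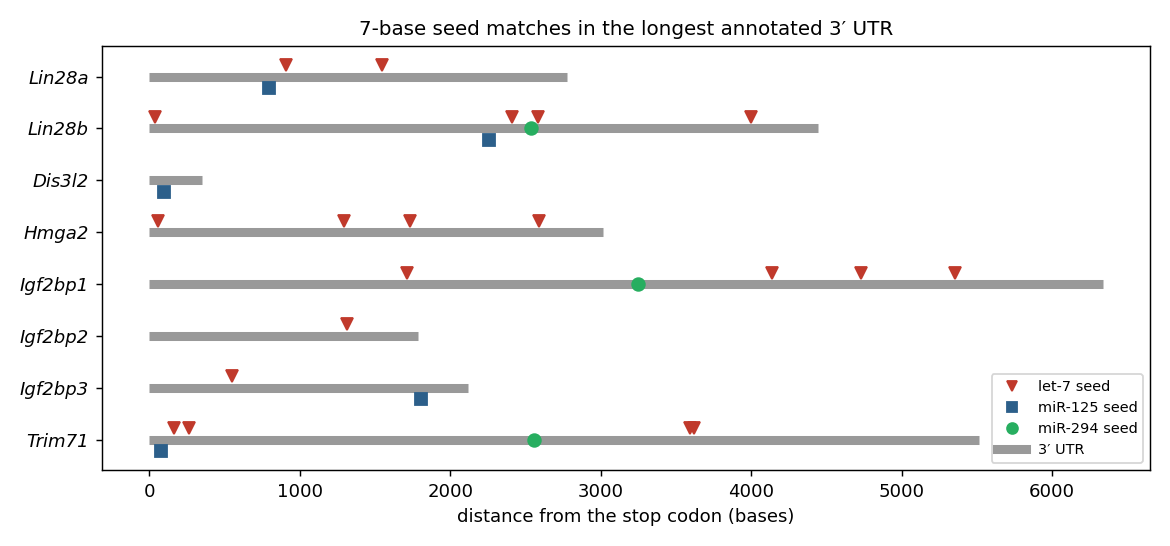
Seed matches along the longest annotated 3′ UTR of each gene, drawn to scale as grey bars against the distance from the stop codon in bases. Red triangles are let-7 matches, blue squares miR-125 matches and green circles miR-294 matches. Lin28b, Hmga2, Igf2bp1 and Trim71 have 4 let-7 matches each, and Dis3l2 has 0.

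Exonic RNA of Lin28a was several-fold lower in both knockout lines. The protein it encodes binds let-7 precursors and keeps them from maturing in undifferentiated cells. Its exons had 2539.9, 2562.6 and 3026.4 normalised reads in Dicer knockout libraries A, B and C, against 12161.6, 21355.2 and 20105.3 in TFC libraries. They had 3596.1, 2934.2 and 3840.6 in Dgcr8 knockout libraries, against 12624.7, 18141.7 and 19670.2 in V6.5 libraries. Every knockout library was below every wild-type library in both pairs. The group means were 2709.6 ± 274.5 and 17874.0 ± 4986.4 (SD, n = 3 each) in the Dicer pair, a level 6.60-fold higher in TFC cells. They were 3457.0 ± 468.9 and 16812.2 ± 3706.2 in the Dgcr8 pair, a level 4.86-fold higher in V6.5 cells.

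The log2 fold change of Lin28a exons, knockout minus wild type on log2(value + 1), was -2.68 (SE 0.28) in the Dicer pair and -2.27 (SE 0.28) in the Dgcr8 pair. Among all genes tested, 4.07% and 6.06% had a fold change as low or lower. Between the A libraries alone the difference was -2.26 and -1.81, and between B and C it was -2.89 and -2.49. Leaving out any 1 library gave -2.94 to -2.53 and -2.46 to -2.14.

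The introns of Lin28a were lower too, but at very few reads. They gave 59, 0 and 0 recovered reads in the Dicer knockout libraries against 115, 40 and 30 in the TFC libraries, or 37.12, 0 and 0 normalised reads against 58.42, 44.48 and 41.92. In the Dgcr8 pair they gave 39, 37 and 0 reads in knockout libraries against 14, 66 and 38 in V6.5 libraries, or 33.29, 21.22 and 0 normalised reads against 41.46, 51.06 and 47.40. The groups did not overlap in either pair. Since libraries at 0 set the size of the fitted change, its value depends on the number added before taking logs. It was -3.86 (SE 2.04) with 1 added and -1.79 with 10 added in the Dicer pair, and -2.38 (SE 1.23) and -1.25 in the Dgcr8 pair. Without Dgcr8 knockout library C it was -0.78. Between the A libraries alone it was -0.64 and -0.31.

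Lin28b, the paralogue of Lin28a that also holds let-7 low, had overlapping levels in knockout and wild-type cells. Its exons had 3222.3, 4240.3 and 4191.0 normalised reads in Dicer knockout libraries against 2009.8, 4150.7 and 4349.3 in TFC libraries. They had 1068.5, 3849.3 and 4149.2 in Dgcr8 knockout libraries against 1300.0, 3581.7 and 3648.4 in V6.5 libraries. Library A was the lowest of its group in all 4 groups. The log2 fold changes were 0.22 (SE 0.33) and 0.00 (SE 0.62) in exons, and 0.60 (SE 0.51) and -0.28 (SE 0.43) in introns. Lin28b has 4 let-7 matches, where Lin28a has 2.

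Dis3l2, the exonuclease that degrades uridine-tailed let-7 precursors, was the lowest of the 8 genes per kilobase of exon in all 4 groups, and the highest per kilobase of intron in both knockout lines. In the Dgcr8 pair its exons had 431.0, 367.5 and 363.0 normalised reads in knockout libraries against 157.4, 215.9 and 194.5 in V6.5 libraries, a 2.05-fold higher mean. Its introns had 1435.9, 2718.5 and 3021.4 in knockout libraries against 467.9, 187.2 and 496.5 in V6.5 libraries, a 6.23-fold higher mean. Neither set overlapped, and the log2 fold changes were 1.04 (SE 0.37) in exons and 2.69 (SE 0.40) in introns.

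In the Dicer pair, Dis3l2 exons had 332.9, 379.4 and 269.6 normalised reads in knockout libraries against 670.8, 55.03 and 325.0 in TFC libraries. TFC library A lay above and TFC library B below all 3 knockout libraries, so that the exonic difference, 0.50 (SE 0.85), has no stable sign. It was -0.53 without TFC library B and 1.27 without TFC library A. The introns had 1824.8, 4274.2 and 4194.1 in knockout libraries against 675.1, 2793.5 and 1914.6 in TFC libraries. The intronic groups overlapped, with a log2 fold change of 1.06 (SE 0.44). The difference was 1.43 between the A libraries and 0.87 between B and C, though no label pairs libraries of the same letter. The intronic reads of Dis3l2 are uncertain in origin, since its introns span 342703 bases in the tables. GENCODE places 12 other genes there, 9 of them on the same strand. Other genes also overlap Lin28a, Hmga2, Igf2bp1, Igf2bp3 and Trim71. These lie on the opposite strand, except for a microRNA gene in Hmga2 and another in Igf2bp1. Whether strand was used in counting is not given, so intronic reads of these 5 genes are uncertain as well.

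**Figure D2:**
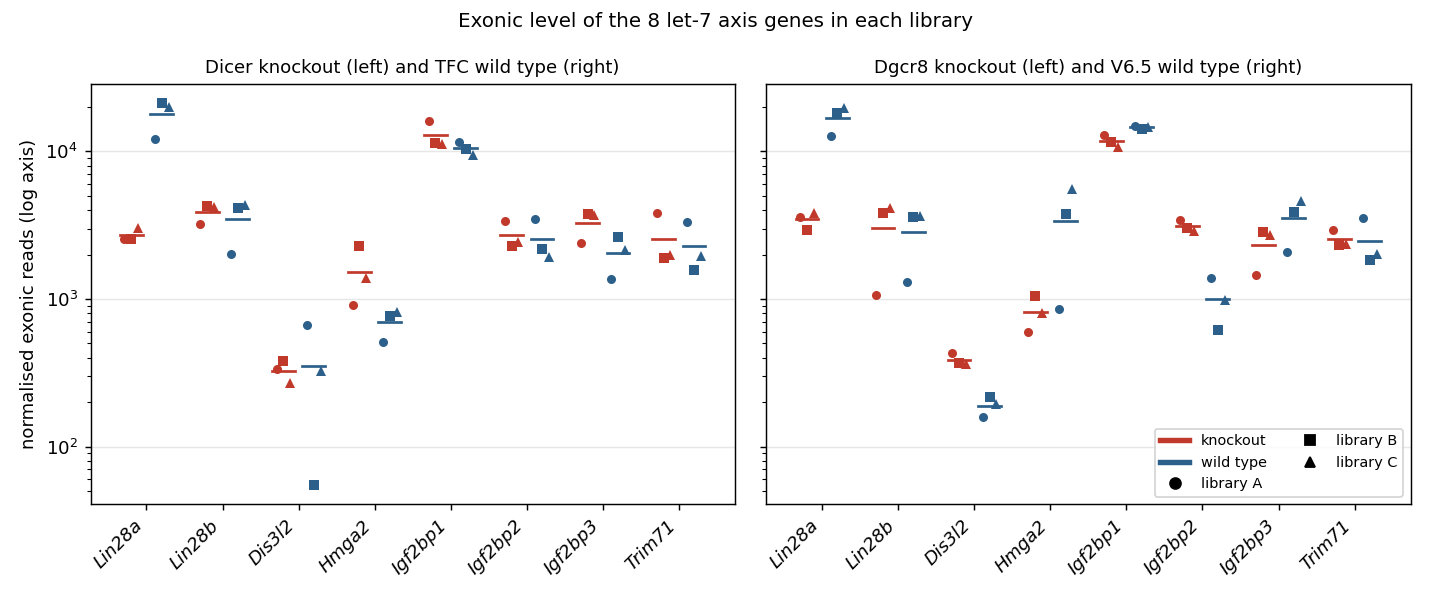
Normalised exonic reads of the 8 genes in every library, on a log axis, with knockout in red left of wild type in blue and a line at each group mean. Markers separate libraries A, B and C. Lin28a lies between 2539.9 and 3840.6 in the 6 knockout libraries and between 12161.6 and 21355.2 in the 6 wild-type libraries.

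Among the targets, Hmga2 differed in opposite directions in the 2 pairs. Hmga2 is a chromatin-bending protein and a classic let-7 target. Its exons had 906.1, 2285.4 and 1378.4 normalised reads in Dicer knockout libraries against 510.3, 765.4 and 814.1 in TFC libraries. In the Dgcr8 pair they had 595.0, 1041.0 and 799.5 in knockout libraries against 853.2, 3739.6 and 5546.7 in V6.5 libraries. Dicer knockout libraries were all higher than TFC libraries, by 2.19-fold in the mean. In the Dgcr8 pair the groups overlapped, because V6.5 library A lay between knockout libraries B and C.

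The exonic log2 fold change of Hmga2 was 1.05 (SE 0.38) in the Dicer pair, and 0.71 without knockout library B. It was -1.72 (SE 0.65) in the Dgcr8 pair, -0.52 between the A libraries alone and -2.32 between B and C. It was -1.17 without V6.5 library C. Dicer introns of Hmga2 had 112, 104 and 134 recovered reads in knockout libraries against 150, 0 and 100 in TFC libraries, and the fitted 2.41 (SE 1.56) became 0.18 without the TFC library at 0. Dgcr8 introns gave -1.11 (SE 0.61), with overlapping groups. The difference between the 2 pairs was not tested, since the choice of Hmga2 used both.

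Markers of other cell types were unevenly spread over the V6.5 libraries. The 7 primitive streak and mesoderm markers, of which Mesp1 was at 0 in both groups and T at 0 in the knockout, summed to 236.6 to 287.8 normalised reads in Dgcr8 knockout libraries against 345.3 (A), 3960.0 (B) and 4652.6 (C) in the V6.5 libraries. The 9 fibroblast or feeder-cell markers summed to 492.5 to 1403.6 in knockout libraries against 5692.8, 13121.1 and 8866.8 in V6.5 libraries, with Lum at 0 in the knockout. The 7 trophectoderm markers summed to 1328.7 to 2548.4 in knockout libraries against 9906.0 to 13719.9 in V6.5 libraries, with Elf5 at 0 in the knockout. The 8 primitive endoderm markers summed to 9789.5 to 10643.2 in knockout libraries against 6119.4, 16010.6 and 16978.1 in V6.5 libraries. They include Sparc, a gene also used by other cell types, whose part in this sum is not given here. Of the markers tested, 4 of 5 mesoderm, 7 of 8 fibroblast, 5 of 6 trophectoderm and 5 of 7 endoderm genes were lower in the knockout. Limma called 2, 4, 3 and 1 of them lower and 0 higher, where 0.564% of all genes tested were called lower. V6.5 libraries B and C, where Hmga2 was high, were also high in the mesoderm and endoderm sums and low in the sum of ESC markers. Since library A had the highest ESC sum in every group, a lower ESC sum in B and C is not particular to V6.5 cells. The part of mesoderm or endoderm cells in the Hmga2 values was not tested. In these bulk samples, fewer cells of a type and less RNA per cell cannot be told apart.

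In the Dicer pair the primitive endoderm markers summed to 14835.0 to 25529.2 in knockout libraries against 3005.9 to 6043.5 in TFC libraries. Most of this sum was 1 gene, Sparc, a matrix protein gene also used by other cell types, at 14516.8, 25222.5 and 22944.1 in knockout libraries against 2721.3, 5170.0 and 4950.5 in TFC libraries. Of the 6 markers tested, 3 had a positive and 3 a negative log2 fold change, and 1, Sparc, named here after its values were seen, passed the test (log2 fold change 2.30, SE 0.34, limma adjusted p = 0.0286). Sox17 was at 0 in both groups and Foxa2 in TFC cells. Mesoderm sums were 572.5 to 784.8 in knockout libraries against 321.0 to 523.5 in TFC libraries. Fibroblast sums were 394.9 to 592.9 against 397.7 to 762.3, with Col1a2, Col3a1 and Lum at 0 in the knockout. Trophectoderm sums were 3396.9 to 5485.6 against 1623.3 to 5541.0, with Elf5 at 0 in TFC cells. The 6 primed epiblast markers summed to 7775.7 to 8133.0 in Dicer knockout libraries against 8062.2 to 15084.7 in TFC libraries, and to 7088.8 to 9277.5 in Dgcr8 knockout libraries against 9356.1 to 14115.2 in V6.5 libraries. In each pair 2 of these 6 markers were higher and 4 lower in the knockout. Limma called 0 in the Dicer pair. In the Dgcr8 pair it called 2 higher and 1 lower, where 1.35% of all genes tested were called, so the lower sum there hides markers that rose. The part of any of these cell types in the member values was not tested.

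The 3 Igf2bp genes encode related RNA-binding proteins that stabilise growth-related transcripts, and each had its own pattern. Igf2bp2 was higher in Dgcr8 knockout cells. Its exons had 3405.8, 3044.5 and 2867.6 normalised reads in Dgcr8 knockout libraries against 1388.9, 612.4 and 983.4 in V6.5 libraries. Its introns had 184.4, 110.1 and 94.37 in knockout libraries against 35.54, 58.02 and 41.16 in V6.5 libraries. Neither set overlapped, with 3.12-fold and 2.89-fold higher means and log2 fold changes of 1.72 (SE 0.34) and 1.48 (SE 0.51). In the Dicer pair, Igf2bp2 exons had 3396.1, 2292.2 and 2427.5 in knockout libraries against 3500.7, 2181.0 and 1928.7 in TFC libraries, with overlapping groups and a log2 fold change of 0.12 (SE 0.29). The introns there gave 0.04 (SE 0.56).

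Igf2bp1, the most abundant of the 8 per length in both knockout lines, differed little. Its exons had 16027.4, 11479.3 and 11205.2 normalised reads in Dicer knockout libraries against 11630.4, 10318.7 and 9430.6 in TFC libraries. They had 12877.4, 11639.6 and 10735.9 in Dgcr8 knockout libraries against 14861.7, 14129.0 and 14714.8 in V6.5 libraries. The Dicer groups overlapped, with a log2 fold change of 0.29 (SE 0.26), while the Dgcr8 knockout libraries were all lower, with -0.31 (SE 0.24). Intronic differences were 0.08 (SE 0.35) and -0.75 (SE 0.49), with overlapping groups. Igf2bp1 has 4 let-7 matches in the longest 3′ UTR of the 8 genes, 6337 bases.

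Igf2bp3 was the higher in Dicer knockout cells and the lower in Dgcr8 knockout cells, with overlapping exonic groups in both pairs. Its exons had 2378.3, 3758.7 and 3723.5 normalised reads in Dicer knockout libraries against 1358.2, 2613.7 and 2145.9 in TFC libraries. They had 1451.5, 2844.1 and 2710.2 in Dgcr8 knockout libraries against 2071.9, 3907.4 and 4600.0 in V6.5 libraries. The log2 fold changes were 0.71 (SE 0.31) and -0.58 (SE 0.40). In the Dicer pair the difference was 0.81 between the A libraries and 0.66 between B and C. In the Dgcr8 pair it was -0.51 and -0.61. No label pairs libraries of the same letter, so these values only describe the spread. Its introns had 388.2, 304.0 and 290.7 in Dicer knockout libraries against 243.3, 24.47 and 279.5 in TFC libraries, without overlap. The fitted intronic change, 1.44 (SE 0.70), was 0.32 without TFC library B, which held 22 recovered reads. In Dgcr8 introns it was -0.11 (SE 0.32).

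Trim71 (Lin41), an RNA-binding ubiquitin ligase, had overlapping exonic levels in knockout and wild-type cells of both pairs. Its exons had 3802.5, 1895.8 and 1995.9 normalised reads in Dicer knockout libraries against 3345.0, 1565.7 and 1953.1 in TFC libraries. They had 2919.8, 2312.7 and 2372.8 in Dgcr8 knockout libraries against 3511.6, 1841.7 and 2027.4 in V6.5 libraries. Library A was the highest of its group in all 4 groups. The exonic log2 fold changes were 0.16 (SE 0.37) and 0.10 (SE 0.31). Its introns were sparse, at 284, 0 and 17 recovered reads in Dicer knockout libraries against 538, 0 and 124 in TFC libraries, and the intronic differences were -1.14 (SE 2.29) and -0.15 (SE 0.80). The tables give Trim71 an exon length of 5192 bases, against 9332 in its longest GENCODE transcript, so part of that transcript may not have been counted.

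**Figure D3:**
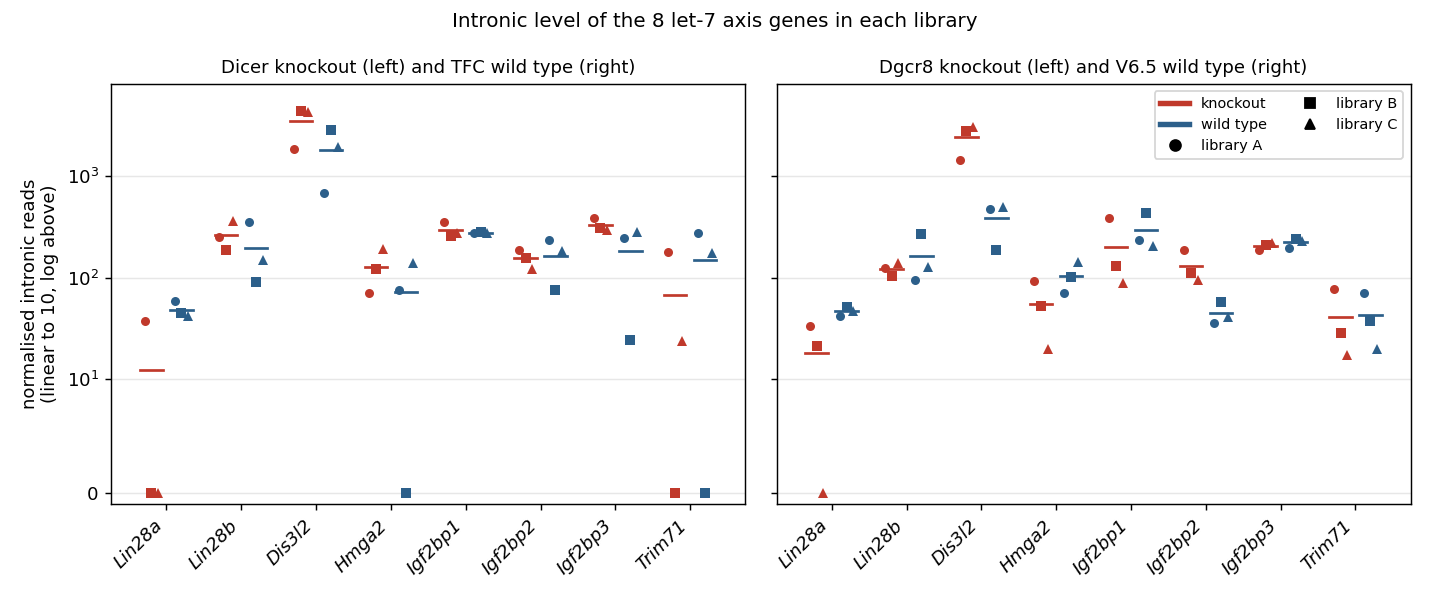
Normalised intronic reads of the 8 genes in every library, on an axis that is linear to 10 and logarithmic above, with knockout in red left of wild type in blue and a line at each group mean. Lin28a is at 0 in Dicer knockout libraries B and C and in Dgcr8 knockout library C, and Dis3l2 lies between 1435.9 and 3021.4 in Dgcr8 knockout libraries against 187.2 to 496.5 in V6.5 libraries.

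Counted over the 8 genes, all of which passed the filter on low values in all 4 tables, 7 had a positive and 1 a negative exonic log2 fold change in the Dicer pair, and 4 and 4 in the Dgcr8 pair. In introns the counts were 6 and 2, and 2 and 6. Knockout and wild-type libraries did not overlap for 2 of 8 genes in Dicer exons, where 21.3% of all genes tested did not overlap. The counts were 2 of 8 in Dicer introns (17.3% of all genes tested), 4 of 8 in Dgcr8 exons (22.5%) and 3 of 8 in Dgcr8 introns (19.7%). Lin28a alone was in all 4 sets. The median log2 fold change of the 8 was 0.25 in Dicer exons and 0.34 in Dicer introns, beside -0.01 and 0.05 over all genes tested. It was -0.16 in Dgcr8 exons and -0.22 in Dgcr8 introns, beside -0.08 and -0.05 over all genes tested. The rule chose the genes on these contrasts, and nothing further is read from these counts.

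**Figure D4:**
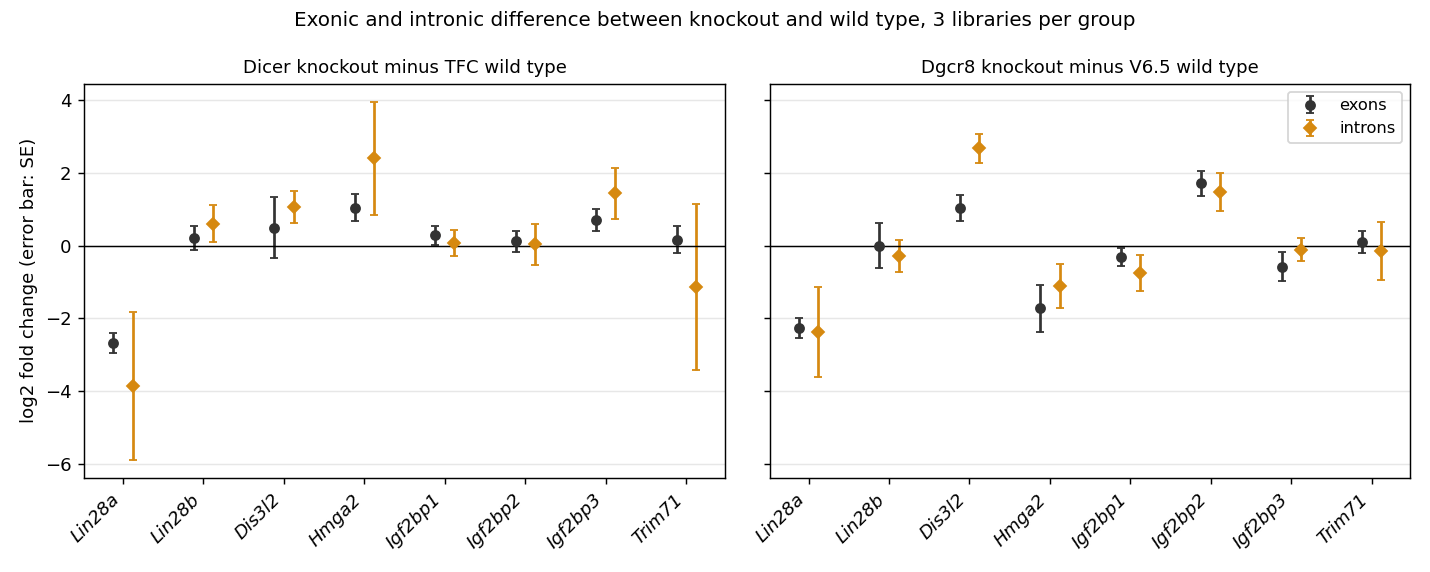
Log2 fold change (knockout minus wild type, on log2(value + 1)) of the 8 genes in exons (grey circles) and introns (orange diamonds), with SE bars over 3 libraries per group. Lin28a is at -2.68 and -2.27 in exons, Hmga2 at 1.05 and -1.72, and the intronic bars of Lin28a, Hmga2 and Trim71 in the Dicer pair are the widest.

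Levels were also ordered within each group per kilobase of the tables' exon length. In wild-type cells Lin28a was the highest of the 8, at 5136.2 ± 1432.9 normalised reads per kilobase in TFC cells and 4831.1 ± 1065.0 in V6.5 cells (SD, n = 3), without overlap with Igf2bp1, the next, at 1248.0 ± 132.0 and 1738.3 ± 46.25. In knockout cells Igf2bp1 was first, at 1539.7 ± 323.2 in Dicer knockout cells and 1402.1 ± 128.3 in Dgcr8 knockout cells, without overlap with Lin28a, the next, at 778.6 ± 78.89 and 993.4 ± 134.8. Igf2bp3, Lin28b and Igf2bp2 followed Lin28a in Dicer knockout cells within overlapping ranges, at means of 756.1, 719.0 and 693.8 per kilobase. Trim71 (494.0) overlapped both its neighbours there, and Hmga2 (364.8) lay above Dis3l2 (103.2) without overlap.

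In TFC cells the order after Igf2bp1 was Igf2bp2, Lin28b, Igf2bp3 and Trim71, at 650.6, 648.4, 469.1 and 440.7 normalised reads per kilobase, with overlap between neighbours within this run. Hmga2 (166.8) and Dis3l2 (110.5) overlapped each other and were last. In Dgcr8 knockout cells the order after Lin28a was Igf2bp2, Lin28b, Igf2bp3 and Trim71, at 796.6, 559.4, 537.2 and 488.3, with overlap between neighbours, followed without overlap by Hmga2 (194.4) and Dis3l2 (122.1). In V6.5 cells it was Igf2bp3, Hmga2, Lin28b, Trim71 and Igf2bp2, at 811.2, 809.3, 526.3, 473.9 and 255.2, with overlap between neighbours, and with Dis3l2 (59.69) last. Igf2bp2 thus held rank 3 of 8 in Dgcr8 knockout cells and rank 7 in V6.5 cells. In introns the first place per kilobase of intron was held by Dis3l2 in both knockout lines, at 10.01 and 6.98, and by Igf2bp1 in TFC and V6.5 cells, at 6.86 and 7.26, and only in V6.5 cells did the range of the first not overlap that of the next.

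The 5 genes whose exonic levels followed those of Lin28a most closely over the 12 libraries were found by Pearson's r on log2(value + 1), centred on the mean of each table, among 9442 genes with a mean of at least 100 in both exon tables. They were Smim7 (r = 0.992), the kinase gene Pim2 (0.983), the chaperonin subunit gene Cct4 (0.982), Txndc17 (0.974) and the casein kinase subunit gene Csnk2a2 (0.973). Pim2 averaged 413.3 normalised reads in Dicer knockout cells against 3701.0 in TFC cells, and 373.7 in Dgcr8 knockout cells against 2109.7 in V6.5 cells. The libraries share genotype, depth and scaling, and r is given as a description.

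Other genes that make let-7 or act with it were tested as a list of 22 measured genes, of which 21 or 22 passed the filter in each table. In Dicer exons 3 rose, where 1.23% of all genes tested were called and 1.01% were called higher, and none fell (limma, Benjamini-Hochberg adjusted p under 0.05). They were Ago1 (adjusted p = 0.024), an Argonaute protein that carries microRNAs, and Tnrc6a (0.0365) and Tnrc6b (0.0383), scaffold proteins of the silencing complex. Ago1 exons had 8964.8, 7479.9 and 8569.2 normalised reads in Dicer knockout libraries against 2738.4, 2995.2 and 2889.4 in TFC libraries, a log2 fold change of 1.53 (SE 0.21). Those of Tnrc6a and Tnrc6b were 1.38 (SE 0.24) and 1.19 (SE 0.21). In Dgcr8 exons Ago1 alone was called, where 1.35% of all genes were called and 0.784% were called higher. It rose by 1.73 (SE 0.23, limma adjusted p = 0.0259), with 7107.5, 7918.5 and 7732.3 in knockout libraries against 2031.3, 2546.6 and 2280.9 in V6.5 libraries. Tnrc6a and Tnrc6b did not pass there, at 1.31 (SE 0.38, limma adjusted p = 0.138) and 1.51 (SE 0.35, limma adjusted p = 0.086). For both, every knockout library was above every V6.5 library, as for 10.6% of all genes tested. With a term for library A both passed (limma adjusted p = 0.000808 and 0.000623), as they did without knockout library A (0.0334 and 0.0177). Tnrc6c, named here after its values were seen, differed by 1.23 (SE 0.37, limma adjusted p = 0.152) in Dgcr8 exons. In Dicer exons it differed by -0.09 (SE 0.40, limma adjusted p = 0.947). In Dgcr8 exons Tnrc6c passed with the term (limma adjusted p = 0.00409) and without V6.5 library A (0.0386).

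No gene of the let-7 processing list was called by limma in the introns of either pair, where 0.353% (Dicer) and 1.53% (Dgcr8) of all genes were called. Limma-voom called 0 there too, and 0 (Dicer) and 2 (Dgcr8) genes of the 21 tested had an unadjusted p under 0.05, where 10.1% and 14.5% of all genes did. Ago1 introns differed by 0.51 (SE 0.47) in the Dicer pair and -0.08 (SE 0.57) in the Dgcr8 pair. The list's median log2 fold change was 0.31 in Dicer exons, 0.19 in Dicer introns, 0.22 in Dgcr8 exons and 0.11 in Dgcr8 introns, beside -0.01, 0.05, -0.08 and -0.05 over all genes tested. Zcchc11 and Zcchc6 (Tut4 and Tut7), which add uridines to let-7 precursors held by Lin28, did not pass the test in any table. Zcchc11 exons averaged 2819.6 normalised reads in Dicer knockout cells against 3512.2 in TFC cells (log2 fold change -0.25, SE 0.29). They averaged 2733.0 in Dgcr8 knockout cells against 1934.4 in V6.5 cells (0.43, SE 0.50). Zcchc6 exons differed by 0.36 (SE 0.28) and -0.13 (SE 0.37). The 3 calls in Dicer exons fell to 0 without any 1 of knockout libraries B and C and TFC libraries B and C, and to 1 (without knockout library A). The Dgcr8 call of Ago1 fell to 0 without any 1 of knockout libraries B and C and V6.5 libraries B and C. Over all alternatives the Ago1 log2 fold change stayed between 1.48 and 1.61 in Dicer exons and between 1.65 and 1.82 in Dgcr8 exons.

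A second list held 45 measured genes known as let-7 targets from many cell types, of which 43 passed the filter in both exon tables. Of these 43 genes, 32 held at least 1 let-7 match in their longest 3′ UTR. In Dicer exons 26 had a positive and 17 a negative log2 fold change, with a median of 0.22 beside -0.01 over all genes tested. Limma and limma-voom each called 0 of them, where limma called 1.23% of all genes tested. Of the 43, 15 had an unadjusted p under 0.05, where 14.4% of all genes did. In Dgcr8 exons 17 were positive and 26 negative, with a median of -0.12 beside -0.08 over all genes tested. There 12 of the 43 had an unadjusted p under 0.05, where 16.2% of all genes did. Limma called 2, both higher, where 1.35% of all genes were called and 0.784% were called higher. The 2 called were the cyclin gene Ccnd2 and the surface receptor gene Igdcc4. Ccnd2 exons had 2442.1, 2621.9 and 2585.4 normalised reads in Dgcr8 knockout libraries against 355.5, 711.3 and 868.7 in V6.5 libraries, a log2 fold change of 2.08 (SE 0.37, limma adjusted p = 0.0462). Igdcc4 exons had 1648.1, 1166.1 and 1084.1 in knockout libraries against 332.6, 206.8 and 189.7 in V6.5 libraries, a log2 fold change of 2.43 (SE 0.36, limma adjusted p = 0.0305). Both calls were lost by limma-voom and without any 1 of Dgcr8 knockout libraries B and C and V6.5 libraries B and C, with log2 fold changes of 1.70 to 2.34 and 2.25 to 2.68 over all alternatives. In the Dicer pair Ccnd2 exons averaged 3383.2 in knockout cells against 539.2 in TFC cells, and Igdcc4 exons 776.3 against 205.4, without passing the test (limma adjusted p = 0.0768 and 0.162). With a term for library A both passed (limma adjusted p = 0.0067 and 0.00811), as did Ccnd2 without TFC library A (0.0178). Ccnd2 has 0 let-7 matches in its longest 3′ UTR, and Igdcc4 has 1.

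In introns the target list had 0 calls among 37 genes in the Dicer pair, where 0.353% of all genes tested were called. It had 1 call among 38 in the Dgcr8 pair, where 1.53% were called. The medians were 0.27 and 0.08 beside 0.05 and -0.05 over all genes tested. In the Dicer pair 7 of the 37 genes had an unadjusted p under 0.05, where 10.1% of all genes did, and limma-voom called 1, Smarcad1, a chromatin remodeller named here after its values were seen, at 1077.9, 1062.2 and 1069.7 normalised intronic reads in knockout libraries against 316.5, 479.3 and 658.2 in TFC libraries. The gene called, where 0.419% of all genes were called lower, was Nr6a1, a nuclear receptor also known as GCNF that silences pluripotency genes on differentiation. Its introns fell to 76.83, 64.22 and 50.95 normalised reads in Dgcr8 knockout libraries, against 201.4, 328.8 and 247.0 in V6.5 libraries, a log2 fold change of -1.99 (SE 0.39, limma adjusted p = 0.0221). This call was lost without any 1 of knockout libraries B and C and V6.5 libraries B and C, where the change over all alternatives was -2.16 to -1.80. Its exons averaged 2224.7 in Dgcr8 knockout cells against 5200.4 in V6.5 cells (-1.21, SE 0.25, limma adjusted p = 0.0636), and 2594.8 in Dicer knockout cells against 3695.0 in TFC cells (-0.50, SE 0.21). The exonic difference of Nr6a1 passed with a term for library A in both pairs (limma adjusted p = 0.00168 in the Dgcr8 pair and 0.0481 in the Dicer pair), and in the Dgcr8 pair also without knockout library A (0.0458) or V6.5 library A (0.0446). Nr6a1 has 8 let-7 matches, the most of both lists.

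The targets Myc, Mycn, Arid3b and Igdcc3 did not pass the test in any table with all libraries and no further term. With a term for library A, Myc (limma adjusted p = 0.0112), Mycn (0.0453) and Arid3b (0.0072) passed in Dicer exons, Myc (0.00387) in Dgcr8 exons and Mycn (0.0368) in Dgcr8 introns, and without TFC library A Myc passed in Dicer exons (0.0357). Myc exons averaged 170.1 normalised reads in Dicer knockout cells against 760.1 in TFC cells (log2 fold change -2.08, SE 0.48, limma adjusted p = 0.0908), and 259.7 in Dgcr8 knockout cells against 825.4 in V6.5 cells (-1.61, SE 0.47, limma adjusted p = 0.142). Mycn exons differed by 0.48 (SE 0.34) and 0.47 (SE 0.52). Myc and Mycn have 0 let-7 matches in their longest 3′ UTR. Arid3b, a DNA-binding protein, averaged 2428.8 in Dicer knockout cells against 1338.5 in TFC cells (0.87, SE 0.28), and 1830.9 in Dgcr8 knockout cells against 1696.4 in V6.5 cells (0.10, SE 0.25). Igdcc3, a relative of Igdcc4, averaged 80.39 in Dicer knockout cells against 40.72 in TFC cells, where TFC library B was at 0, and 127.6 in Dgcr8 knockout cells against 123.5 in V6.5 cells.

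**Figure D5:**
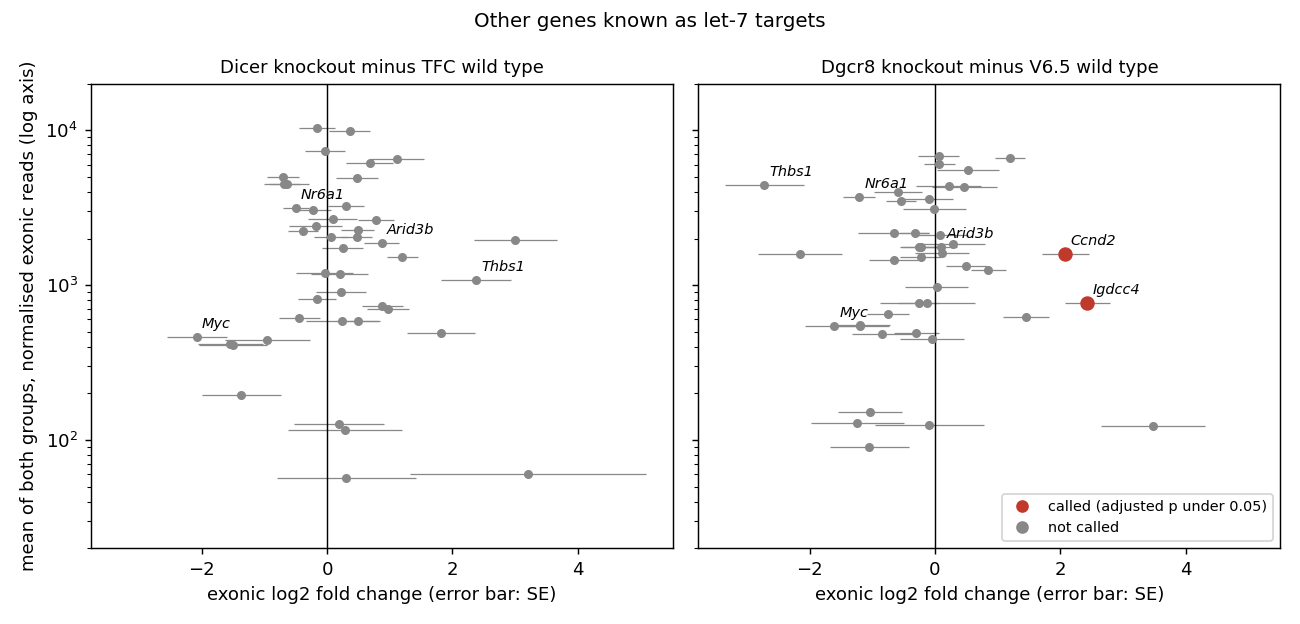
Exonic log2 fold change (knockout minus wild type, SE bars) of the 43 tested genes of the let-7 target list in each pair, against the mean normalised exonic reads of both groups on a log axis. Red points passed the test, which are Ccnd2 and Igdcc4 in the Dgcr8 pair, at 2.08 and 2.43, and grey points did not.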

How the data were processed

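Polyadenylated RNA of 12 mouse ESC libraries was sequenced strand-specifically. The submitters' processing notes name TopHat2 2.0.12, DESeq and mm10. The rule that split reads between exons and introns, and whether strand was used, are not given in the sources used here. Per the file headers, the deposited signal is normalised reads, as 1 group mean per column in 4 tables scaled apart, so no level is compared between tables.

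Each mean is a whole-number combination of 3 steps, 1 per library, so the reads of each library were solved from 15 significant digits. Between 99.42% and 100.0% of genes per column had 1 solution. Of the rest, up to 57 per column were kept where only 1 solution put the libraries within a factor of 4, which favours a small spread, and 4 to 83 per exon column were left out. Even read numbers made up 66.4% to 71.6%, more than independent single reads would give, so no counting interval is given. The solving and the fit were checked on simulated data. Letters were carried from exonic to intronic libraries by the correlation of their deviations across genes, at r of 0.39 to 0.57 for A and 0.09 to 0.41 for B and C, so letters B and C may be swapped there.

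Differences were fitted within each table with limma 3.58.1 (R 4.3.3, trend) on log2(value + 1) over genes with a mean of at least 10, with 4 residual degrees of freedom. A call is a Benjamini-Hochberg adjusted p under 0.05 over all genes tested. A fold change on this scale is a difference of mean logs, so it can differ from the ratio of means. Adding 1 makes it smaller for low genes. A library at 0 or far below the others can make it larger, as in Dicer introns for Lin28a, Hmga2 and Igf2bp3. It can differ in sign, as for Dis3l2 in Dicer exons (0.50, at a ratio of means of 0.934). For Igf2bp2 in Dicer introns it was 0.04, at a ratio of 0.946. An exact permutation test of 3 against 3 libraries cannot go below a two-sided p of 0.1. The marker sums leave out unsolved genes. Alternatives were another pseudocount, no filter, limma-voom on the recovered reads, upper-quartile scaling, a term for library A, and each library left out. From the processing and target lists, all called genes and 8 genes fixed by name were to be described, of which 1 is not reported here. The 8 members, the lists and the tests were chosen with earlier results of these data known. Seed matches used 3′ UTRs of GENCODE M21 of at least 20 bases.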

Additional observations from a re-analysis of the deposited data

Results flagged for a closer look

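One gene of the target list stood on opposite sides in the 2 pairs without any overlap of libraries. Thbs1, which encodes the matrix protein thrombospondin 1 and is a reported let-7 target, had 986.6, 1976.5 and 2396.9 normalised exonic reads in Dicer knockout libraries against 164.8, 287.6 and 704.7 in TFC libraries, a log2 fold change of 2.37. It had 1335.1, 785.4 and 804.3 in Dgcr8 knockout libraries against 2097.3, 10909.3 and 10534.0 in V6.5 libraries, a log2 fold change of -2.72. Neither passed the test (limma with Benjamini-Hochberg adjustment, adjusted p = 0.0941 and 0.086), and the difference between the pairs was not tested. With a term for library A both passed (limma adjusted p = 0.0019 and 0.00541), as did the Dgcr8 difference without V6.5 library A (0.0187). Its longest 3′ UTR holds 0 let-7 matches. V6.5 libraries B and C, where Thbs1 was highest, also had the higher mesoderm and fibroblast marker sums and the lower ESC marker sums given above. In every group the ESC marker sum was lower in B and C than in A. The part of mesoderm or fibroblast cells in the Thbs1 values was not tested.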

How the results depend on the processing

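Of the 32 log2 fold changes of the 8 genes (4 tables), 21 kept their sign in each of 11 refits. The other 11 changed sign in at least 1, among them Lin28b, Igf2bp2, Trim71 and Dis3l2 in Dicer exons and Lin28b and Trim71 in Dgcr8 exons. In Dicer introns Hmga2 ranged from 0.18 to 3.75 and Trim71 from -3.73 to 0.88. The term for library A leaves these fold changes as they are by construction. Counts of calls depended strongly on the fit. In Dicer exons 163 genes were called, against 21 by limma-voom, 1624 with a term for library A, and 0 to 474 with 1 library left out. Dicer introns gave 41, against 63 by limma-voom, 92 with the term, 87 with 10 added, and 0 to 37. Dgcr8 exons gave 172, against 50 by limma-voom, 2161 with the term, and 0 to 470. Dgcr8 introns gave 164, against 451 with the term, 314 with 10 added, and 26 to 176. The 0 calls came without Dicer knockout library B or C or TFC library C (exons, 1211, 1157 and 1517 genes at unadjusted p under 0.05), without Dicer knockout library B (introns, 733), and without Dgcr8 knockout library B or C or V6.5 library B or C (exons, 1328, 1436, 1271 and 1499). The term for library A also moved the share of calls that were higher in Dicer exons to 59.1%, against 81.6%. For the processing list, 3 calls in Dicer exons became 1 by limma-voom, 5 with the term and 0 to 4 with 1 library left out, 1 in Dgcr8 exons became 7 with the term and 0 to 3, and 0 in Dgcr8 introns became 1 with the term. For the target list, 0 in Dicer exons became 16 with the term and 0 to 3, 0 in Dicer introns became 1 by limma-voom and 1 with the term, 2 in Dgcr8 exons became 0 by limma-voom, 13 with the term and 0 to 5, and 1 in Dgcr8 introns became 2 with 10 added, 3 with the term and 0 to 1. The cause was not tested. No paired analysis was possible because no replicate number from the labels is attached to the deposited means, and the term for library A rests on the data alone. Trimmed-mean scaling was not run, and upper-quartile scaling took its place.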

Other observations

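Across all genes other than the 8, exonic differences varied little with the number of let-7 matches in the longest 3′ UTR. In the Dicer pair the median log2 fold change was 0.09 over 170 genes with 2 or more matches, 0.00 over 1202 genes with 1, and -0.02 over 11536 genes with none. In the Dgcr8 pair it was -0.21 over 168 genes with 2 or more matches, -0.05 over 1184 genes with 1, and -0.08 over 11091 genes with none. Of the genes with 2 or more matches, 8.82% had every knockout library above every wild-type library in the Dicer pair, and 9.41% had every one below. In the Dgcr8 pair these shares were 10.1% and 15.5%. Among genes with none, these shares were 11.6% and 9.63% in the Dicer pair, and 10.6% and 11.8% in the Dgcr8 pair. These shares are descriptions, and genes are not independent replicates.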
